A study of Mus musculus with 6 samples.

Results

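A set of 9 genes known from neural progenitors was followed in fibroblasts that lack Lpar6 and in fibroblasts that carry it: Sox1, Sox2, Sox3, Sox11, Neurog2, Hes5, Nes, Fabp7 and Igfbpl1. The members were named by gene symbol and were chosen with earlier results of these data known. Every probe annotated with one of the 9 symbols was taken, which gave 20 probes. The 9 genes stand among 19057 genes named by 1 symbol on the array. Of the 9, 6 were not detectable in either genotype by the filter used, and Sox1, Sox2 and Sox3, the defining transcription factors of neural progenitors, were among the 6. The name neural progenitor genes therefore describes where the genes are known from and not what these cells were seen to express. The 3 genes with a measurable signal were Sox11, Nes and Igfbpl1: Sox11 and Igfbpl1 were lower in Lpar6-/- cells, and the difference in Nes did not pass the test.

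The cells were mouse embryonic fibroblasts, primary cells grown out of dissociated embryos, of mixed 129SV and C57BL/6 strain. There were 3 arrays of Lpar6-/- cells (columns D, E and F) and 3 arrays of Lpar6+/+ cells (columns A, B and C), all Illumina bead arrays. The sample titles all end in the same number, which may be that of a shared slide. No treatment is given for either genotype. Lpar6 encodes a receptor for the lipid signal lysophosphatidic acid, and the comparison asks how transcript levels differ in cells without it. The submitters' title calls the experiment a knock-down, while the genotype labels name Lpar6-/- cells, and the genotype labels were used. Whether each array stands for another embryo or culture is not stated in the labels. The p-values then reflect array-to-array spread alone, and that spread may be technical. The letters of the columns run with genotype. If they follow array position or another order, which the column names do not state, its effect cannot be told apart from genotype.

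In the embryonic neural tube, Sox1, Sox2 and Sox3 keep dividing progenitors undifferentiated, and Notch signalling does the same through Hes genes such as Hes5. Proneural factors such as Neurog2 act against them and start neuronal differentiation, and Sox11, with its relative Sox4, is known for switching on neuronal genes afterwards. Nes, the intermediate filament nestin, and Fabp7, the brain-type fatty acid binding protein, are used as markers of radial glia, although nestin is also made by muscle precursors, pericytes and many cultured cells. Igfbpl1 encodes a secreted protein related to the IGF binding proteins and is known from young neurons.

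The 250 bases before the annotated start are shown for 3 genes that stand for the 3 outcomes: Sox11, which fell, Hes5, which was not detectable, and Nes, whose difference did not pass. The windows are RefSeq's on GRCm38.p6, 5′ to 3′ on the gene's strand: chr12:27342719-27342968 on the minus strand for Sox11, chr4:154960673-154960922 on the plus strand for Hes5, and chr3:87970843-87971092 on the plus strand for Nes. Capitals mark TGGGAA, the core of sites for the Notch effector RBPJ, and CANNTG, the E-box of proneural and other bHLH factors, each on either strand.
Sox11: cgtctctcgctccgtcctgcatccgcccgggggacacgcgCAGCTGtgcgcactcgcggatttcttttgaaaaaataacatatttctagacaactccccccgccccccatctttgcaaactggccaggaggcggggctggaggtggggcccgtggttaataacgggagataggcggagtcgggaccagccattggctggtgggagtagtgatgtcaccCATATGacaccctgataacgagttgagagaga
Hes5: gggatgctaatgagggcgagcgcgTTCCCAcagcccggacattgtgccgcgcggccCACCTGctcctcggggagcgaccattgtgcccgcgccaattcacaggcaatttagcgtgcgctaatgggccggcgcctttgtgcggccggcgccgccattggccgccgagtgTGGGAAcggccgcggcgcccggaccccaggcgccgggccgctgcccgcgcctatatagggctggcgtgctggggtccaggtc
Nes: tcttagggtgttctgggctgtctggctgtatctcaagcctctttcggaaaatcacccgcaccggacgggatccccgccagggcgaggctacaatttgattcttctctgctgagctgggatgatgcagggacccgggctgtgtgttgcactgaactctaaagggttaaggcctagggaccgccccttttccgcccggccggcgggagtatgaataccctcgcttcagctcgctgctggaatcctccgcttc
Windows were matched for 7 of the 9 genes, all but Sox3 and Igfbpl1. Hes5 is a textbook target of Notch, and its window held TGGGAA 2 times, once on each strand. Fabp7 held it once, so that 2 of the 7 windows held TGGGAA, against 21.6% of the 32851 windows of the whole table. CANNTG was found in 3 of the 7 windows (Sox11, Hes5 and Fabp7), against 66.2% of all windows. In the Sox11 window the E-boxes began 210 and 32 bases before the start. CACNAG, the N-box bound by Hes factors, was found in 2 of the 7 (36.7% of all windows), in Sox11 and Fabp7. ACAANG, a core of Sox sites, was found in 4 of the 7 (36.3% of all windows), in Sox1, Sox2, Hes5 and Fabp7. In Fabp7 the CACNAG and ACAANG matches overlap. The Nes window held none of the 4 motifs; the known neural enhancer of Nes lies in the second intron, outside this window. These matches describe letters in a window and do not show binding.

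Sox1, Sox2 and Sox3, closely related factors that hold neural progenitors in the dividing state, were not detectable on any array. Detection is a p-value for each probe and array, set against the negative control beads of that array, and a p under 0.05 was taken as detected. The lowest intensity that reached detection was 94.2 to 98.8 on the Lpar6-/- arrays and 96.6 to 104 on the Lpar6+/+ arrays. The Sox2 probe ILMN_2656102 had intensities of 96.3, 82.8 and 82.1 on the Lpar6-/- arrays and of 92.9, 88.9 and 83.6 on the Lpar6+/+ arrays, with detection p between 0.0759 and 0.514. The genotypes overlapped, and the same held for the other Sox2 probe, ILMN_1248711, with 78.7 to 94.2 in Lpar6-/- and 77.6 to 90.3 in Lpar6+/+ cells. The single Sox1 probe (ILMN_2739469) read 84.8 to 94.5 in Lpar6-/- and 82.6 to 94.7 in Lpar6+/+ cells. The Sox3 probes read 68.6 to 83.1 in Lpar6-/- and 78.2 to 88.2 in Lpar6+/+ cells, again without detection on any array.

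Neurog2, which starts neuronal differentiation, and Hes5, which holds it back under Notch, also stayed at background. The Neurog2 probes lay between 78.8 and 91.2 in Lpar6-/- cells and between 89.1 and 96.1 in Lpar6+/+ cells. For 1 of them, ILMN_2924180, the intensities of the genotypes did not overlap (78.8 to 85.9 in Lpar6-/- and 89.1 to 96.1 in Lpar6+/+ cells), but after normalization they did. The lowest detection p of Neurog2 was 0.154. The Hes5 probes lay between 73.3 and 86.9 in Lpar6-/- cells and between 81.5 and 92.2 in Lpar6+/+ cells, and the lowest detection p was 0.231. Fabp7, the radial glia lipid carrier, read 89.9, 88.4 and 81.6 on the Lpar6-/- arrays and 82.5, 105 and 86.3 on the Lpar6+/+ arrays. Its probe (ILMN_2738330) was detected on 1 array, Lpar6+/+ array B, at a detection p of 0.0385. It was the 1 detected reading among the 60 of the 10 probes of these 6 genes.

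With no filter on detection, these 10 probes had changes of -0.16 to 0.18 (log2, Lpar6-/- minus Lpar6+/+), and limma called none of them (lowest adjusted p = 0.24). The lowest unadjusted p was 0.0641, that of Sox1, so that none lay under 0.05 without adjustment either. At this signal a difference between the genotypes was not detectable, which is not the same as no transcript. A probe may stay dark for a transcript that is present: of the 4 Sox11 probes, ILMN_1251337 and ILMN_2643394 read 74.8 to 97.1 over all arrays, while the other two were well above background. In the same way the probes of Ccna2 and Bub1, needed by dividing cells and picked after their values were seen, were not detected on any array, while Plk1 and Aurkb were detected on all 6.

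**Figure D1:**
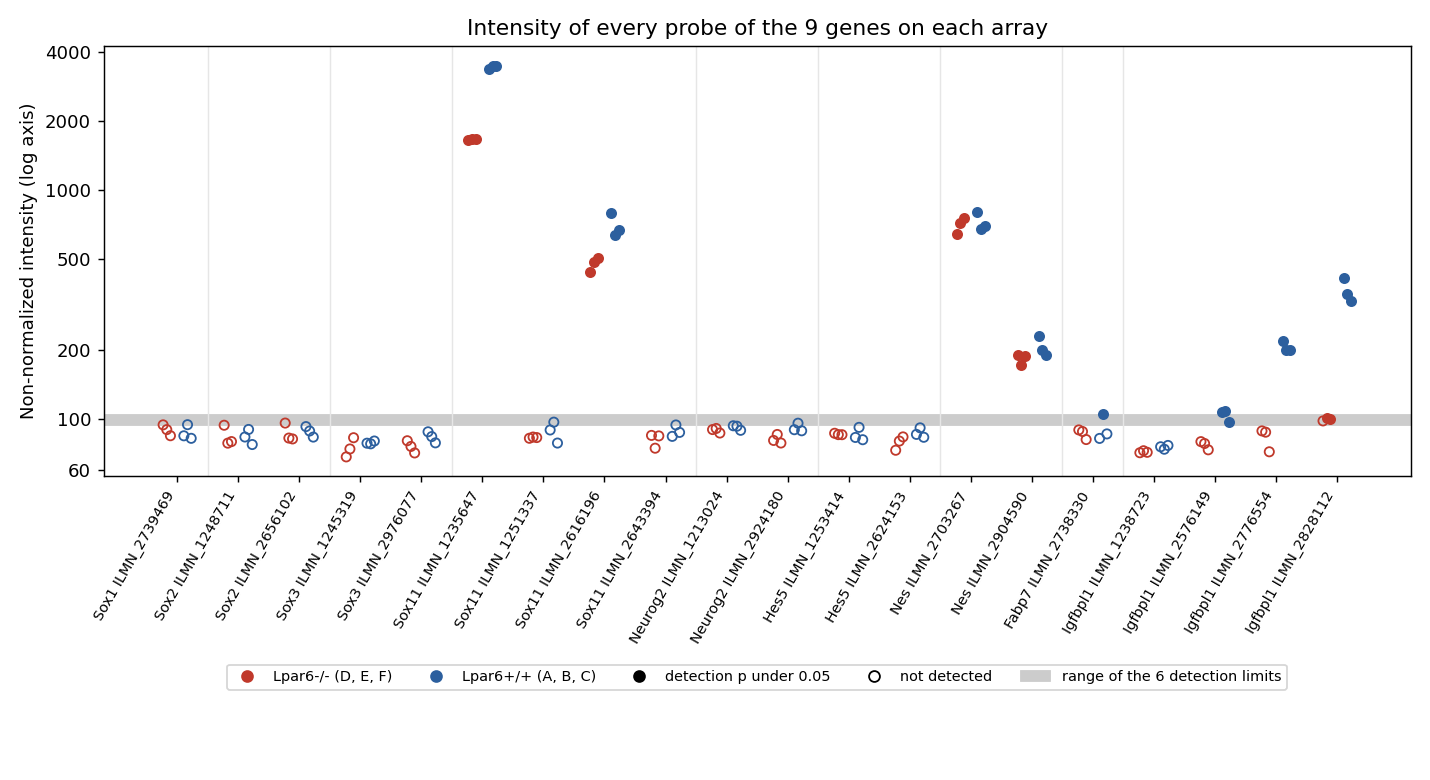
Non-normalized intensity (log axis) of each of the 20 probes on every array, with Lpar6-/- arrays in red on the left and Lpar6+/+ arrays in blue on the right of each probe. Filled points were detected (p under 0.05), open points were not, and the grey band spans the detection limits of the 6 arrays. The 10 probes of Sox1, Sox2, Sox3, Neurog2, Hes5 and Fabp7 lie between 68.6 and 105, while probes of Sox11, Nes and Igfbpl1 rise above the band.

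Sox11, a transcription factor of the SoxC group, was the brightest reading among the 20 probes and was lower in Lpar6-/- cells. Its probe ILMN_1235647 had intensities of 1644, 1669 and 1658 on the Lpar6-/- arrays and of 3344, 3480 and 3445 on the Lpar6+/+ arrays. All 3 Lpar6-/- values lay below all 3 Lpar6+/+ values, and the Lpar6-/- values were close to each other. After background correction and quantile normalization the level was 10.69 ± 0.05 in Lpar6-/- and 11.71 ± 0.16 in Lpar6+/+ cells (log2, SD, n = 3 arrays each). The change was -1.02 ± 0.10 (log2, SE; 95% interval -1.25 to -0.78), a 2.02-fold fall (limma, adjusted p = 6.76e-05). The second bright probe, ILMN_2616196, read 438, 487 and 504 in Lpar6-/- cells and 789, 636 and 666 in Lpar6+/+ cells. It fell as well, but by less, with a change of -0.44 ± 0.10 (limma, adjusted p = 0.00617). The changes of the 2 probes differed by -0.58 (log2), and the array-wise differences of the genotypes did not overlap. An exact two-sided permutation test gave p = 0.1 for that difference, which is the smallest p that 3 arrays against 3 allow. All 4 Sox11 probes are annotated to the same RefSeq transcript, and where on it each probe lies was not analysed here. The direction was shared by both bright probes. The measured size of the fall differed between them, and the permutation test cannot decide on that difference, since it cannot reach a p under 0.05.

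Igfbpl1, the secreted IGF-binding-protein-like factor, had the largest fall of the 3 tested genes. Its brightest probe, ILMN_2828112, read 98.3, 101 and 99.8 on the Lpar6-/- arrays and 413, 353 and 327 on the Lpar6+/+ arrays. In Lpar6-/- cells it stood at the detection limit and was detected on 2 of 3 arrays (E and F), while it was detected on all Lpar6+/+ arrays. Its level was 5.11 ± 0.13 in Lpar6-/- and 8.09 ± 0.11 in Lpar6+/+ cells (log2, SD, n = 3 arrays each). The change was -2.98 ± 0.10 (log2, SE), a fitted 7.88-fold fall (limma, adjusted p = 1.37e-07) whose size is uncertain because the lower group is at background. Without background correction the change was -1.35 with log2(intensity + 50), and -1.72 in the authors' deposited log2 values. Igfbpl1 was called lower in each of the 16 alternatives that tested it, with limma adjusted p of 5.87e-16 to 3.49e-06.

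The other Igfbpl1 probes gave the same direction where they gave a signal. ILMN_2776554 read 89.0, 87.9 and 72.2 in Lpar6-/- cells and 220, 199.7 and 199.5 in Lpar6+/+ cells. It was not well above background on any Lpar6-/- array, so that its fall is given as a bound, at least 3.99-fold lower (limma, adjusted p = 3.03e-07). For such a bound, each Lpar6-/- array enters with the lowest value detected on it, or with the reading of the probe if that is higher, and the Lpar6+/+ mean is set against these. ILMN_2576149 was barely detected in Lpar6+/+ cells (97.0 to 108) and not detected in Lpar6-/- cells (73.6 to 79.9), with a bound of at least 1.03-fold lower (limma, adjusted p = 0.000389). ILMN_1238723 stayed at 71.5 to 72.9 in Lpar6-/- and 74.0 to 76.9 in Lpar6+/+ cells and was not detected on any array. The 2 brighter probes are annotated to the RefSeq transcript and the other 2 to cDNA clones. The detection filter kept Igfbpl1 through the Lpar6+/+ arrays, where it is high, and with detection p under 0.01 asked on all 6 arrays Igfbpl1 is not tested.

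Nes, the intermediate filament gene of nestin, was detected on all 6 arrays, and its difference between the genotypes did not pass the test. Its probe ILMN_2703267 read 644, 713 and 755 in Lpar6-/- cells and 804, 672 and 698 in Lpar6+/+ cells. The genotypes overlapped, and the array with the highest value was an Lpar6+/+ one. The normalized level was 9.39 ± 0.10 in Lpar6-/- and 9.27 ± 0.06 in Lpar6+/+ cells (log2, SD, n = 3 arrays each), a change of 0.12 ± 0.09 (SE) that did not pass (limma, adjusted p = 0.336). The 95% interval of the ratio of Lpar6-/- to Lpar6+/+ was 0.941 to 1.26. The other probe, ILMN_2904590, read 191, 172 and 188.5 in Lpar6-/- and 230.5, 199.9 and 190 in Lpar6+/+ cells, with a change of 0.02 ± 0.11 (limma, adjusted p = 0.886) and an interval of the ratio of 0.856 to 1.21. Over the alternatives the change of this probe lay between -0.17 and 0.11, so that it has no settled sign. A change in Nes as large as that of the brightest Sox11 probe lies outside both intervals.

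**Figure D2:**
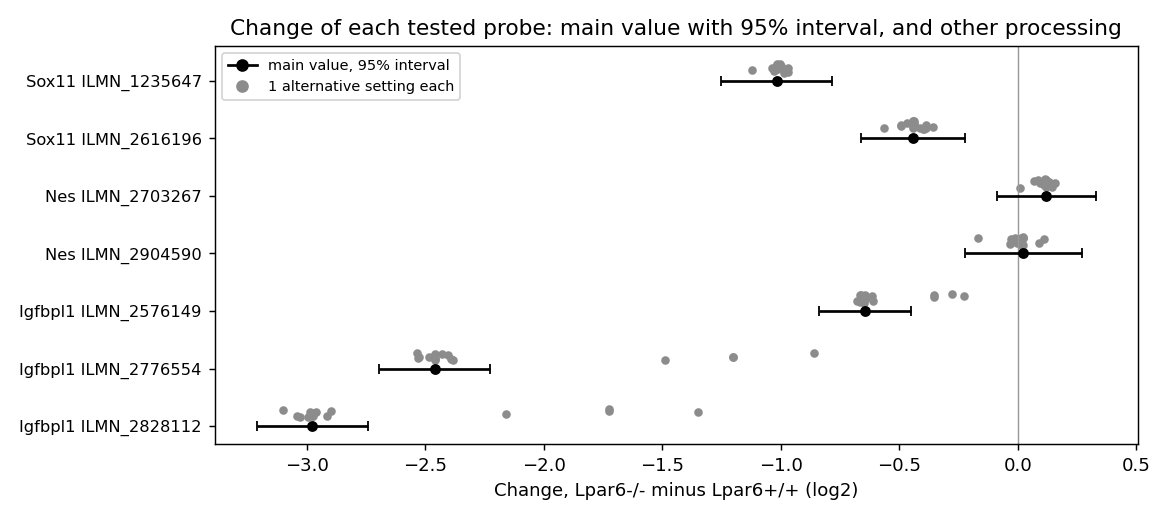
Change of the 7 tested probes of Sox11, Nes and Igfbpl1, as log2 of Lpar6-/- minus Lpar6+/+. Black points are the main values with 95% intervals, and each grey point is 1 alternative setting of the processing. Both Nes intervals span 0. The Sox11 points stay close to the main values, and the grey Igfbpl1 points nearest to 0 come from settings with no background correction or a larger offset.

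Of the 9 genes, 2 were called lower and 0 higher, with 1 tested and not called and 6 without a kept probe. Over all 11040 genes tested, 39.7% were called (limma, adjusted p under 0.05), 19.1% lower and 20.6% higher, and the groups did not overlap in 52.8%. A count of 2 among 3 tested genes, 1 of which the filter kept only through the Lpar6+/+ arrays, supports no statement about the set. A fall at least as large as that of Sox11 was measured in 4.27% of all genes tested, and one as large as that of Igfbpl1 in 0.109%. When arrays were scaled by their medians instead of quantile-normalized, the median change of all genes shifts by -0.11 (log2) and the share of calls that are lower moves to 66.1%, against 48.1%. Relative to the median of all genes, Sox11 changed by -1.04 and by -0.95 with median scaling, Igfbpl1 by -3.00 and -3.02, and Nes by 0.09 under both. The targeted gene went with the labels: the Lpar6 probe read 76.7, 77.9 and 76.0 on the Lpar6-/- arrays and 1373, 1223 and 1278 on the Lpar6+/+ arrays, at least 37.5-fold lower (limma, adjusted p = 1.51e-09). The sources do not state if the deletion covers this probe. The number of probes detected was 19006 to 19249 on the Lpar6-/- arrays and 19646 to 20137 on the Lpar6+/+ arrays, and the number of arrays limits the precision.

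Sox11 was 1 of several Sox genes that were lower in Lpar6-/- cells. The array names 19 Sox genes, of which 12 had a kept probe. Of these, 5 fell and 1 rose. Among the 11 other than Sox11, 45.5% were called, close to the 39.7% of all genes tested. Sox6 was kept through the Lpar6+/+ arrays alone, so that the filter fixed its direction. Of the same 11, 8 were detected on all 6 arrays, with 3 lower and 1 higher. Sox4, the SoxC relative of Sox11 that acts beside it in young neurons, fell by a similar amount, with a change of -1.08 ± 0.09 (limma, adjusted p = 2.32e-05). Its brightest probe read 1252, 1552 and 1436 in Lpar6-/- and 3456, 2979 and 2788 in Lpar6+/+ cells, so that the genotypes did not overlap. The mean of both kept Sox4 probes gave -0.64, since the dimmer probe had a change of -0.19. The third SoxC gene, Sox12, named after its values were seen, changed by -0.14 ± 0.12, short of the threshold (limma, adjusted p = 0.402). The changes of Sox11 and Sox12 differed by -0.88 (log2), with no overlap between genotypes in the array-wise difference, and an exact two-sided permutation test gave p = 0.1, the smallest possible. Sox11 and Sox4 differed by 0.07, and their array-wise differences overlapped (exact two-sided p = 0.7).

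The other 3 Sox genes that fell were those of cartilage formation: Sox9, the master regulator of chondrocytes (-0.88 ± 0.09), and its cofactors Sox5 (-1.35 ± 0.11) and Sox6, which was not detected in Lpar6-/- cells and was at least 1.63-fold lower. Sox10, a regulator of neural crest and glia, was the 1 that rose (0.30 ± 0.10; limma, adjusted p = 0.0436). The call of Sox10 was lost in 9 of 17 alternatives, with adjusted p up to 0.486 under median scaling. Sox21, which counteracts Sox2 and its relatives in the neural tube, had a change of -0.20 ± 0.16 and was not called.

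**Figure D3:**
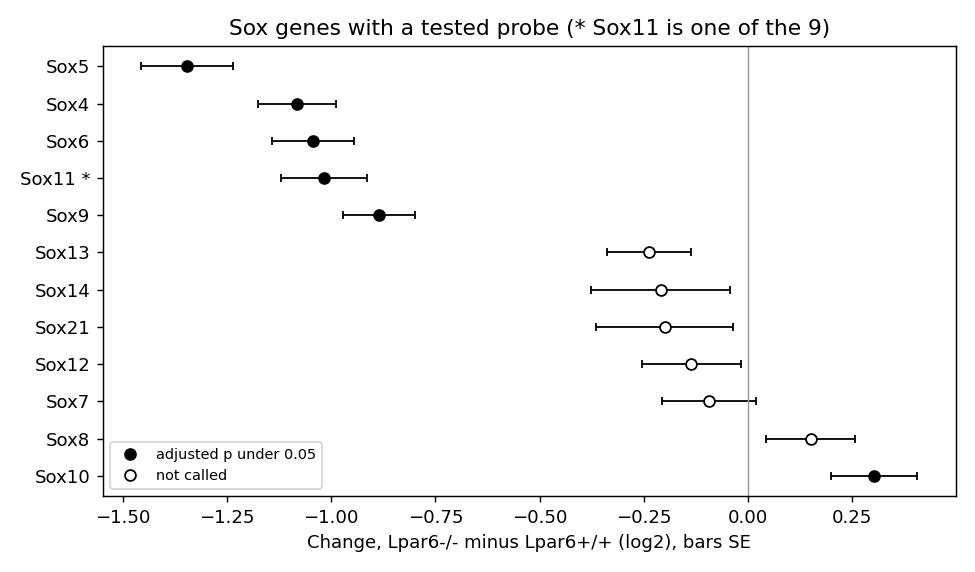
Change of the 12 Sox genes with a tested probe, as log2 of Lpar6-/- minus Lpar6+/+ with SE bars, each gene by its brightest kept probe. Filled points passed the test and open points did not, and the point of Sox6 is its fitted change, since it was not detected in Lpar6-/- cells. Sox11 lies beside Sox4, Sox5, Sox6 and Sox9 on the left, apart from the 6 genes that were not called and from Sox10 on the right.

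Other genes known from neural stem and progenitor cells gave a mixed picture. Of 41 on the array, 21 had a kept probe. Of these 21, 9 fell and 3 rose, with a median change of -0.20, beside 0.03 for all genes tested. The share called was 57.1%, beside 39.7% of all genes tested. The largest falls were in the homeobox gene Gbx2 (-2.46 ± 0.11), the proteoglycan gene Ncan (-2.23 ± 0.12), the membrane protein gene Gpm6a (at least 3.09-fold lower) and the zinc finger gene Zic1 (-1.78 ± 0.09). Metrn, a secreted factor of glial differentiation (1.28 ± 0.12), the endothelin receptor gene Ednrb (0.85 ± 0.10) and Olig1 (0.56 ± 0.10) rose. Of this list, 13 genes were not detected on any array, among them the transcription factor genes Pax6, Emx1, Emx2, Lhx2, Otx1 and Otx2 and the RNA-binding protein gene Msi1. Gbx2 was detected on 1 of 3 Lpar6-/- arrays and Ncan on 2, so that the sizes of their falls are uncertain. The 14 kept genes of this list that were detected on all 6 arrays had 4 lower and 3 higher (median change -0.09), since 7 of the 21 were not detected on every Lpar6-/- array and may have passed the filter through the Lpar6+/+ arrays alone. With detection p under 0.01 asked on all 6 arrays, 3 genes of this list fell.

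The Notch and proneural list surrounds Neurog2 and Hes5, and 23 of its 40 genes on the array had a kept probe. Of these, 8 fell and 2 rose, with a median change of -0.21. The share called, 43.5%, was close to the 39.7% of all genes tested. Among the 17 detected on all 6 arrays, 6 fell and 1 rose. Neurod2, a neuronal bHLH factor that follows the proneural genes, fell (-2.59 ± 0.15), though it was detected on only 1 Lpar6-/- array. The Id genes, whose products block bHLH factors, fell in part: Id1 by 1.03 ± 0.09 and Id2 by 0.62 ± 0.10 on the log2 scale. Insm1, a zinc finger gene of newborn neurons, was at least 1.33-fold lower. Heyl, a Notch target of vessel walls and muscle, rose and was at least 2.19-fold higher, and Hes6, which favours differentiation, rose as well (0.44 ± 0.11). Hes1, a Notch target in many tissues, was called lower with a change of -0.41 (limma, adjusted p = 0.00547). Notch1, the receptor, had a change of 0.01 and the ligand gene Dll1 one of -0.08, neither called; these 3 genes were named after their values were seen.

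The gene families of Nes, Fabp7 and Igfbpl1 are given by their counts, and none was tested against its member. Over all genes tested, 19.1% were called lower and 20.6% higher. Among the other intermediate filament genes, 4 of 9 fell and 3 rose. Ina and Nefm also stand in the newborn neuron list. The neuronal filament genes Ina (-3.19 ± 0.13) and Nefm (-1.30 ± 0.13), the peripheral neuron gene Prph (-0.93 ± 0.12) and Synm (-0.52 ± 0.11) fell. The lamin genes Lmnb1 (0.85 ± 0.10) and Lmnb2 (0.34 ± 0.09) rose, as did Des, the desmin of muscle (0.67 ± 0.10). Of the fatty acid and retinoid binding protein genes, 4 of 13 on the array had a kept probe: Fabp3 fell (-0.69 ± 0.11) and the retinoic acid binding protein gene Crabp1 rose (1.07 ± 0.11). Of the IGF binding protein genes, 5 of 8 were called higher, 0 lower and 3 were not called (median change 0.48). The largest changes were in Igfbp7 (0.88 ± 0.13), Igfbp4 (0.79 ± 0.09) and Igfbp5 (0.72 ± 0.10).

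Markers of other cell types differed between the same arrays, and their part in the falls of Sox11 and Igfbpl1 was not tested. The counts of these lists stand beside 19.1% of all genes tested called lower and 20.6% called higher. Newborn neuron genes fell in 19 of 20 with a kept probe (median change -2.51). Of the 20, 5 were not detected on every Lpar6-/- array, so that the filter could keep them through the Lpar6+/+ arrays alone and partly fixes this count. The 14 detected on all 6 arrays all fell (median change -2.52). The summed level of all 20, in background-corrected normalized intensity, was 1689 to 1769 on the Lpar6-/- arrays and 10514 to 10624 on the Lpar6+/+ arrays. Dlx1 was the exception (0.58 ± 0.16), and its call was lost without Lpar6-/- array F or Lpar6+/+ array A or C. Of the neuron list, 10 genes were not detected on any array, among them Tubb3, Snap25 and Neurod1. Chondrocyte genes, which include Sox5, Sox6 and Sox9, fell in 11 of 11 (median change -1.38), 9 of which were detected on all 6 arrays, with a summed level of 4676 to 4700 in Lpar6-/- and 18814 to 19185 in Lpar6+/+ cells. In RNA of bulk cultures, fewer cells of a type and less RNA per cell cannot be told apart.

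Markers of the other cells in which Sox2, Nes or Sox11 are known gave further values. Genes of the skeletal muscle lineage, whose precursors make nestin, rose in 6 of 9 and fell in 0 (median change 0.67). Of the 9, 2 were not detected on every Lpar6+/+ array and could pass the filter through the Lpar6-/- arrays alone. Among the 7 muscle genes detected on all 6 arrays, 5 rose (median change 0.72). The summed level of all 9 was 5172 to 5704 in Lpar6-/- and 3117 to 3166 in Lpar6+/+ cells. The largest rises were in Chrna1 (1.18 ± 0.11), Myog (1.01 ± 0.09) and Chrng (0.85 ± 0.09), while the progenitor genes Pax3, Pax7 and Myf5 were not detected. Among 9 pericyte genes, 5 rose and 2 fell, with sums of 3788 to 4137 in Lpar6-/- and 3099 to 3214 in Lpar6+/+ cells. Des, the brightest of them, had a level of 10.99 in Lpar6-/- and 10.32 in Lpar6+/+ cells (log2). It also stands in the muscle and intermediate filament lists, so that the muscle and pericyte sums share it. Pluripotent cell genes, a further site of Sox2, had 4 kept members. Klf4 (-0.61 ± 0.09) and Esrrb (at least 1.23-fold lower) fell, and Esrrb was kept through the Lpar6+/+ arrays alone. Pou5f1 had a change of -0.09 (limma, adjusted p = 0.634) and Dppa5a one of -0.13 (limma, adjusted p = 0.442), neither called. Nanog and Zfp42 were not detected, and the sums were 287 to 310 in Lpar6-/- and 431 to 486 in Lpar6+/+ cells. Neural crest and Schwann cell genes had 1 lower and 3 higher of 7, with sums of 1987 to 2136 in Lpar6-/- and 1812 to 1915 in Lpar6+/+ cells. The 1 lower, Tfap2b, had the largest change of this list (-2.39 ± 0.10). The 3 higher were Ngfr (0.90 ± 0.10), Ednrb (0.85 ± 0.10) and Sox10 (0.30 ± 0.10), whose call was lost in 9 of 17 alternatives. Fibroblast genes, the defining markers of the labelled cells, had a kept probe in 13 of 14 (Postn was not detected), with 9 higher and 0 lower and sums of 71181 to 73082 in Lpar6-/- and 45865 to 48754 in Lpar6+/+ cells. Of the dividing cell genes, 10 of 13 rose (median change 0.45), with sums of 10578 to 11010 in Lpar6-/- and 7123 to 7457 in Lpar6+/+ cells. Adipocyte genes rose in 9 of 9 (median change 1.65), but 5 of the 9 were not detected on every Lpar6+/+ array and could pass the filter through the Lpar6-/- arrays alone. The 4 adipocyte genes detected on all 6 arrays rose (median change 1.43). The adipocyte list had sums of 11057 to 12968 in Lpar6-/- and 3366 to 3946 in Lpar6+/+ cells. Epithelial genes rose in 8 of 9 (median change 1.38), and in 7 of the 8 detected on all 6 arrays, with sums of 2313 to 2441 in Lpar6-/- and 786 to 827 in Lpar6+/+ cells.

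**Figure D4:**
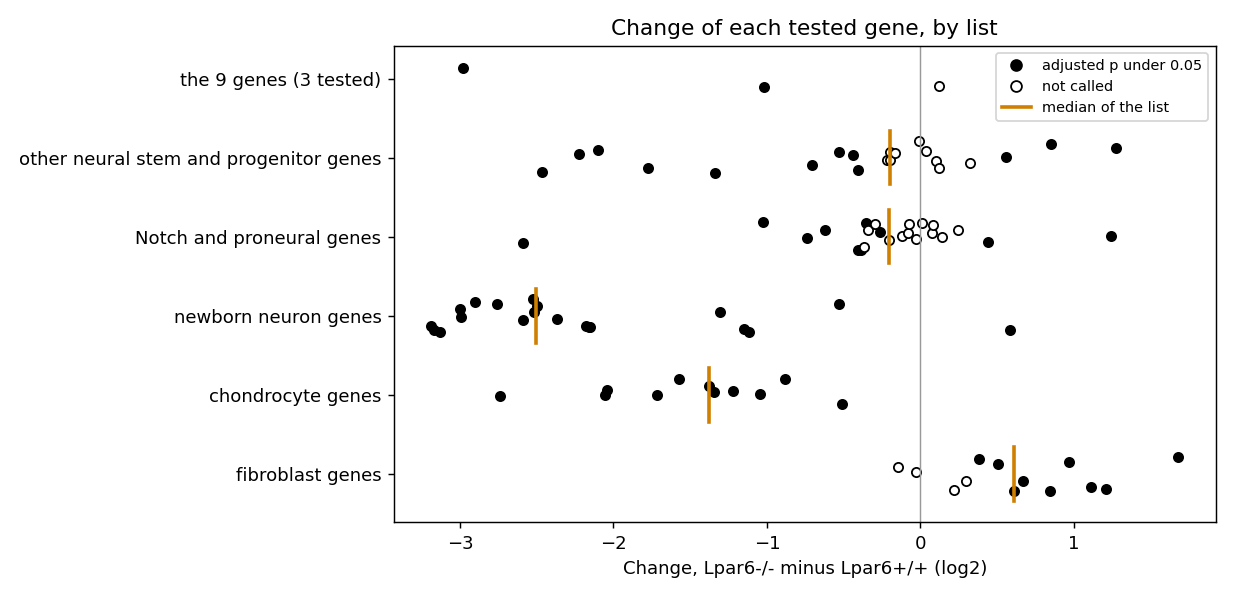
Change of each gene with a tested probe, as log2 of Lpar6-/- minus Lpar6+/+, for the 9 genes (3 tested) and for 5 other lists, with filled points past the test, open points not called and an orange bar at each other list's median. Newborn neuron and chondrocyte genes lie mostly on the left (medians -2.51 and -1.38), fibroblast genes on the right (0.61), and the other progenitor and Notch lists spread around -0.20 and -0.21.

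The genes whose pattern over the 6 arrays was most like that of a called member were found by Euclidean distance between log2 values, each centred on its own mean. For Igfbpl1 the nearest were Gad1, which makes the transmitter GABA (distance 0.19), B3gat1, which makes a carbohydrate of neural cell surfaces (0.237), and Sst, the hormone somatostatin (0.24). Their changes were -2.99 ± 0.09 for Gad1, -3.09 ± 0.09 for B3gat1 and -3.09 ± 0.12 for Sst (log2, SE). For Sox11 the nearest were Map9, a microtubule-associated protein gene (distance 0.137), Ephx1, an epoxide hydrolase gene (0.137), and Fas, the death receptor (0.154). Their changes were -0.98 ± 0.11 for Map9, -0.95 ± 0.10 for Ephx1 and -1.07 ± 0.10 for Fas. With 6 arrays in 2 genotypes, such a distance rests mostly on the size of the genotype difference.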

How the data were processed

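RNA of 6 fibroblast samples was extracted with Trizol and measured on Illumina bead arrays, per the labels' protocols. Per the file headers, the authors deposited intensity values that are not normalized, beside detection p-values. A second deposited table holds log2 values made by the authors, with limma named in the submitters' processing notes. Its group means lay within 0.0039 of log2 intensities that were quantile-normalized here with no background step, and each column's median was 6.54. Intensity columns carry a letter and no replicate number and were assigned to a genotype only.

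With neqc (limma 3.58.1, R 4.3.3) the intensities underwent normexp correction, in which detection p-values stand in for control probes, then quantile normalization and log2 transformation at an offset of 16; the offset shrinks changes of dim probes. Probes detected at p under 0.05 on at least 3 of 6 arrays were kept (19802 of 45281, 43.7%) and tested with lmFit and eBayes for Lpar6-/- minus Lpar6+/+, taking Benjamini-Hochberg adjusted p under 0.05 across the kept probes as a call. A gene outside the 9 is given by its brightest kept probe. Names came from GEO's platform annotation (34885 probes with 1 symbol, 18 with several, 10378 unnamed here). The fit was tested on simulated data.

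The members and lists were chosen with earlier results of these data known. Named were Lpar6, all 9 members and the 3 nearest patterns of each called member. From the lists, some of the called genes with the largest changes were named, out of at most 4 lower and 3 higher of a list. Other genes, among them Sox21, Pou5f1, Dppa5a and genes that were not detected, were named outside this rule, and only some of these are marked. Alternatives covered background correction, offset, normalization, the authors' values, the detection filter, the variance model, array weights, the mean of a gene's probes, a replicate block and leaving out each array. Counts over the list genes detected on all 6 arrays were added after seeing the data; they leave out genes that are at background in 1 genotype.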

Additional observations from a re-analysis of the deposited data

How the results depend on the processing

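Sox11 and Igfbpl1 were called lower, and Nes was not called, under every alternative in which each was tested. That was 17 alternatives for Sox11 (changes of -1.12 to -0.73, the last for the mean of its probes) and Nes (0.01 to 0.16) and 16 for Igfbpl1 (-3.10 to -1.35). With detection p under 0.01 on all 6 arrays Igfbpl1 is not tested, so 1 of the 9 genes was called lower. The median change of the tested members was -1.02, and it has little meaning with 3 of them: it was -0.97 for log2(intensity + 50), -0.45 with the strict detection filter, -0.73 with the mean of a gene's probes and 0.049 without a filter, where all 9 genes enter. Leaving out 1 array gave -1.12 to -0.97, with the lowest without Lpar6+/+ array A. The number of genes called was 4379, within 1.5 times of that under every alternative run. Replicate numbers 1 to 3 are shared by the genotypes in the authors' values. Deviations of same-numbered arrays correlated at -0.05, 0.02 and -0.05, and no Lpar6-/- array correlated best with its own number, so the numbers were not taken to pair samples. With the replicate block on the authors' values the changes were -0.99 for Sox11, -1.72 for Igfbpl1 and 0.11 for Nes, as without it, and 2551 genes were called higher and 2355 lower, in place of 2574 and 2377. Signal near background limits what can be said of Sox1, Sox2, Sox3, Neurog2, Hes5 and Fabp7 and of the size of the fall of Igfbpl1.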
